A study of Mus musculus with 16 samples.

Results

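Nuclear genes for the subunits of the mitochondrial respiratory chain were measured in mouse kidney by RNA sequencing. The members were the genes whose symbols start with Nduf, Uqcr, Atp5 or Cox4 to Cox8, or are Sdha, Sdhb, Sdhc or Sdhd, with a mean normalized count over the 16 libraries of at least 100 and no pseudogene symbol. This gave 89 of the 20525 genes. By complex these were 46 genes of complex I (7 core subunits, 31 accessory subunits and 8 assembly factors named Ndufaf), 4 of complex II, 8 of complex III, 14 of complex IV and 17 of complex V. Ndufb4c, counted with the accessory subunits, has no annotated coding sequence. Of the 97 symbols matched, 3 are pseudogene symbols, among them Ndufb1-ps with a mean of 3209, and 5 had a mean below 100. The genes nearest the limit were Ndufa4l2 (87.7) below it and Cox6b2 (117) and Cox6a2 (124) above it. The rule misses Cyc1, which encodes cytochrome c1 of complex III, and keeps Ndufa4 in complex I although its protein is now counted with complex IV.

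Complexes I to IV sit in the inner mitochondrial membrane and pass electrons from NADH and succinate through ubiquinone and cytochrome c to oxygen. Complexes I, III and IV pump protons, and complex V, the ATP synthase, uses the proton gradient to make ATP. A few subunits are encoded by mitochondrial DNA and the others by the nucleus, except that complex II is wholly nuclear and also works in the citric acid cycle. Proximal tubule cells reabsorb most of the filtrate, burn mainly fatty acids and hold many mitochondria, so kidney cortex is rich in these transcripts.

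The RNA came from frozen kidney sections 30 µm thick of mice aged 8 weeks, with a background that the labels spell C56BL/6. In the glycerol groups 7.5 ml/kg of 50% glycerol was injected into the caudal muscle of the right thigh, which breaks down skeletal muscle (rhabdomyolysis) and releases heme proteins that can injure the kidney. The PBS groups received PBS instead. The genotype was C3-/-, which removes the function of C3, the central protein of the complement system, or wild type (WT), and the groups C3-/- glycerol, WT glycerol, C3-/- PBS and WT PBS held 4 libraries each. The labels leave out sex, the interval from injection to sampling and the part of the gene removed in C3-/-, and they do not say that each library is a separate animal. The p-values therefore measure only the spread between these libraries, which may be technical.

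The targeted gene did not check the genotype labels. The normalized counts of C3 were 8008, 1457, 5495 and 1587 in glycerol libraries labelled C3-/- and 3729, 1712, 2783 and 4718 in WT glycerol libraries, against 819, 1139.7, 860.0 and 564 in PBS libraries labelled C3-/- and 335, 361, 470.5 and 425 in WT PBS libraries. C3 mRNA was thus higher in each PBS library labelled C3-/- than in each WT PBS library. After glycerol, libraries 1 and 3 labelled C3-/- lay above all WT glycerol libraries, and libraries 2 and 4 lay below all of them. A count over the whole gene need not show a partial deletion. The genotype is therefore given below as the label of a library. Summed over genes, a library held 25.81 M to 38.39 M normalized counts, and how many reads each had is not known. The Y-linked gene Ddx3y was at or above 100 in 11 of the 16 libraries: all 8 WT libraries, PBS library 4 labelled C3-/- and glycerol libraries 3 and 4 labelled C3-/-.

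Glycerol libraries 1 and 3 labelled C3-/- and WT glycerol library 4 stood apart from the rest. Each library's description ends in a running number, which differs among the other 13 libraries, while these 3 carry the numbers 4, 5 and 3 that occur among them. They are called the repeat-numbered libraries here, and whether the number marks a separate sequencing run is not given in the labels. Glycerol libraries 1 and 3 labelled C3-/- and WT glycerol library 4 had 982, 750 and 3374 genes at 0. Their summed normalized counts were 35.81 M, 36.15 M and 38.39 M. The other 13 libraries had 190 to 540 genes at 0 and at most 34.01 M. The cause was not tested. Relative to the WT PBS mean, the median log2 difference of the 89 members was 0.51 and 0.87 in glycerol libraries 1 and 3 labelled C3-/- and 0.32 in WT glycerol library 4. The other glycerol libraries had -0.41 and -0.47 under the C3-/- label and -0.60, -0.63 and -0.43 in WT, and the PBS libraries lay between -0.09 and 0.14. Removing them leaves 2 glycerol libraries labelled C3-/- and 3 WT glycerol libraries, and results that rest on them are given below with and without them.

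**Figure D1:**
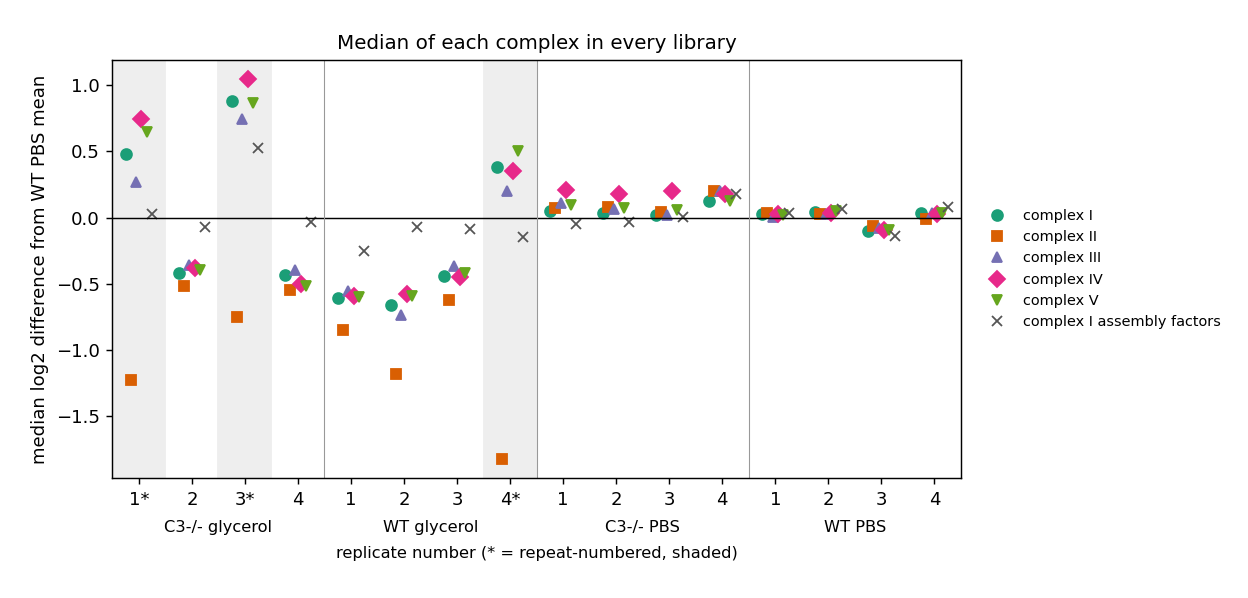
Median log2 difference from the WT PBS mean (y axis, log2 of normalized count + 1) of the members of each complex and of the complex I assembly factors in every library (x axis, grouped), with the 3 repeat-numbered libraries shaded. In those libraries complexes I, III, IV and V lie above 0 and complex II at -1.23, -0.75 and -1.83, whereas in the other 5 glycerol libraries all 5 complexes lie below 0.

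After glycerol the respiratory chain transcripts were lower than after PBS in the 5 glycerol libraries that are not repeat-numbered, in every complex and under both genotype labels. In those libraries 82 and 86 of the 89 members (labelled C3-/-) and 85, 82 and 82 (WT) lay below all 4 PBS libraries of their own label, where 31.6% and 32.7% (labelled C3-/-) and 39.6%, 43.2% and 40.1% (WT) of all tested genes did. In the repeat-numbered libraries 26 and 13 members (labelled C3-/-) and 30 (WT) did, against 45.8%, 43.7% and 50.6% of all tested genes. There 59 and 73 members (labelled C3-/-) and 53 (WT) lay above all 4, against 39.9%, 39.6% and 40.2%. In bulk tissue, fewer cells of a type and less RNA per cell cannot be told apart.

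All libraries together were tested with limma on log2(normalized count + 1) over the 18035 genes with a value of at least 10 in at least 4 libraries, which all 89 members passed, and a gene was called at a Benjamini-Hochberg adjusted p below 0.05. Log2 differences below are glycerol minus PBS or C3-/- label minus WT on that scale, which understates the change of low genes. For glycerol against PBS among libraries labelled C3-/-, 4 of 89 members fell and none rose, where 1.96% of all tested genes fell and 3.68% rose. The members' median was 0.09 and that of all tested genes -0.06. In WT, 15 of 89 fell and none rose, where 13.3% of all tested genes fell and 12.5% rose, with a median of -0.32 for the members and -0.11 for all genes. In WT the members' share of falls was thus close to that of all genes.

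Without the repeat-numbered libraries the counts were several times higher. Among libraries labelled C3-/-, 72 of 89 members fell and none rose, where 10.8% of the 17673 genes tested fell and 12.5% rose, and the members' median was -0.50 against -0.01 for all genes. In WT, 81 fell and 1 rose, where 29.4% of all genes fell and 26.8% rose, with medians of -0.57 for the members and -0.05 for all genes. Every member called with all libraries was also called without the 3. The count of members without overlap between groups was also higher without the 3. With all libraries 13 members lay lower in every glycerol library labelled C3-/- than in every PBS library (9.71% of all tested genes) and 27 in WT (22.4%). Without the 3 it was 82 (22.9%) and 80 (30.8%). In the higher direction it was 1 member (9.53% of all genes), Cox6a2, under the C3-/- label and none (18.2%) in WT, and without the 3 1 member under each label (22.8% and 28.0%). Cox6a2 passed the mean limit of the members only through the C3-/- glycerol group.

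With all libraries the median of complex II stood well below those of the other complexes, and without the repeat-numbered libraries it was lowest by less. Among libraries labelled C3-/-, the median log2 difference with all libraries was 0.12 for complex I, -0.87 for complex II, -0.04 for complex III, 0.03 for complex IV and 0.07 for complex V. In WT it was -0.33 for complex I, -0.97 for complex II, -0.33 for complex III, -0.30 for complex IV and -0.26 for complex V. Without the repeat-numbered libraries the medians were -0.46 for complex I, -0.65 for complex II, -0.49 for complex III, -0.57 for complex IV and -0.55 for complex V under the C3-/- label and -0.60 for complex I, -0.90 for complex II, -0.52 for complex III, -0.53 for complex IV and -0.52 for complex V in WT. The members that fell then numbered 34 of 46, 4 of 4, 6 of 8, 12 of 14 and 16 of 17 for complexes I to V under the C3-/- label, and 40, 4, 8, 13 and 16 in WT. In the same fit 10.8% and 29.4% of all tested genes fell. A difference between complexes was not tested.

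**Figure D2:**
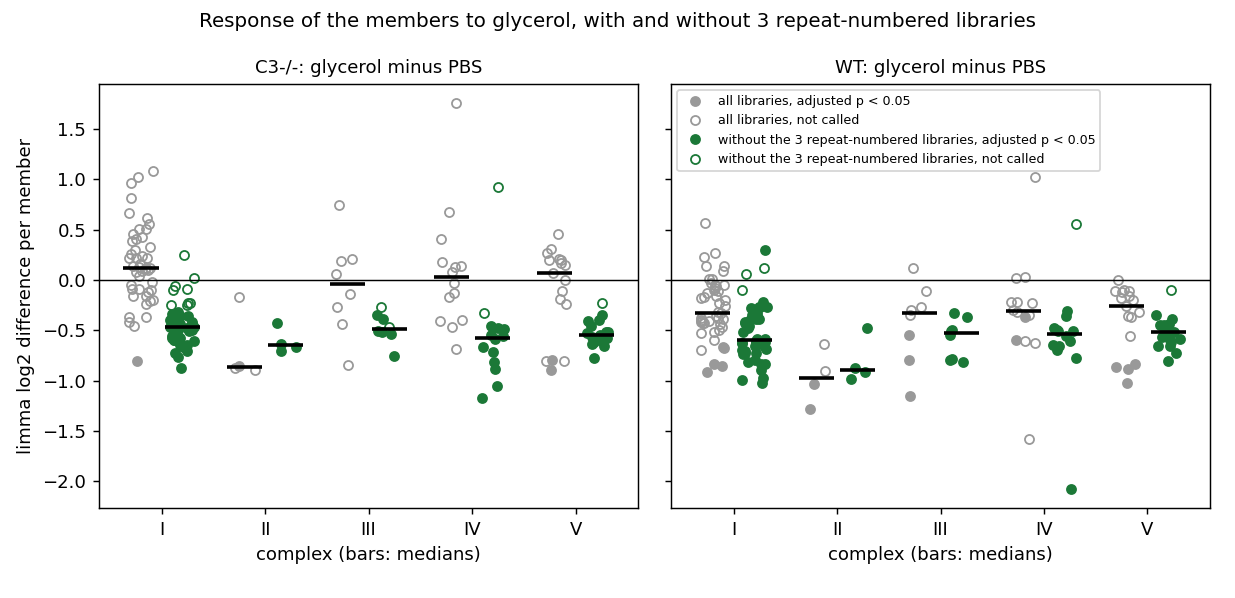
Log2 difference of glycerol minus PBS (y axis) of each of the 89 members by complex (x axis), for libraries labelled C3-/- (left) and WT (right), with all libraries in grey and without the 3 repeat-numbered libraries in green; bars are medians. Filled points passed limma's adjusted p of 0.05, and the members that fell numbered 4 (left) and 15 (right) with all libraries and 72 and 81 without the 3.

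The repeat-numbered libraries did not shift all members alike. Set against the other glycerol libraries of its own label, a member was higher in all 3 of them in 66 cases, lower in all 3 in 9 cases and mixed in 14. The 9 lower members were Sdha, Sdhc and Sdhd of complex II, Uqcrc2 of complex III, Cox5a of complex IV, Atp5a1, Atp5c1 and Atp5f1 of complex V and the assembly factor Ndufaf1. Across the 89 members, Spearman's rho of these differences between WT glycerol library 4 and glycerol libraries 1 and 3 labelled C3-/- was 0.95 and 0.87; the points share gene lengths, the normalization and the assignment of reads to genes. The SD of the log2 differences over the members was 1.08, 0.87 and 1.04 in glycerol libraries 1 and 3 labelled C3-/- and in WT glycerol library 4, and 0.29 to 0.41 in the other 5 glycerol libraries.

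The members that were higher in all 3 had shorter coding sequences, with a median of 348 bases against 894 bases for the 9 that were lower. In the 29 members with a coding length of at most 333 bases, the median log2 difference from WT PBS was 0.93 and 1.19 in glycerol libraries 1 and 3 labelled C3-/- and 0.66 in WT glycerol library 4. In the 30 members with at least 525 bases it was 0.11, 0.54 and -0.22. Over the 88 members with a coding length, Spearman's rho of length with the difference was -0.37, -0.39 and -0.40 in these 3 libraries, and between -0.37 and 0.12 in the other 5. Over 14917 tested genes rho was between -0.20 and -0.16 in the 3 libraries and between -0.11 and 0.01 in the others. The part of length in the difference between the libraries was not tested.

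Ndufa5 and Cox6b1, chosen after their values were seen, show the high side of this pattern. Ndufa5, an accessory subunit of the matrix arm of complex I, stood at 16226, 2122, 12822 and 2094 in glycerol libraries 1 to 4 labelled C3-/- and at 1828, 1999, 2017 and 12007 in WT glycerol libraries 1 to 4. Its PBS values were 2799, 2731, 2741 and 2572 under the C3-/- label and 2700.5, 2569, 2377 and 2545 in WT. The 3 repeat-numbered libraries lay far above PBS and the 5 others below it. For Cox6b1, glycerol libraries 1 to 4 had 31659.9, 5197, 20176 and 5301 under the C3-/- label and 4260.4, 4222, 5113 and 22510.0 in WT, against 7490.2, 7078, 7038 and 7276 in PBS libraries labelled C3-/- and 6837, 6946, 5958 and 6792 in WT PBS libraries. Cox6b1, a subunit on the outer face of complex IV, showed the same order.

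**Figure D3:**
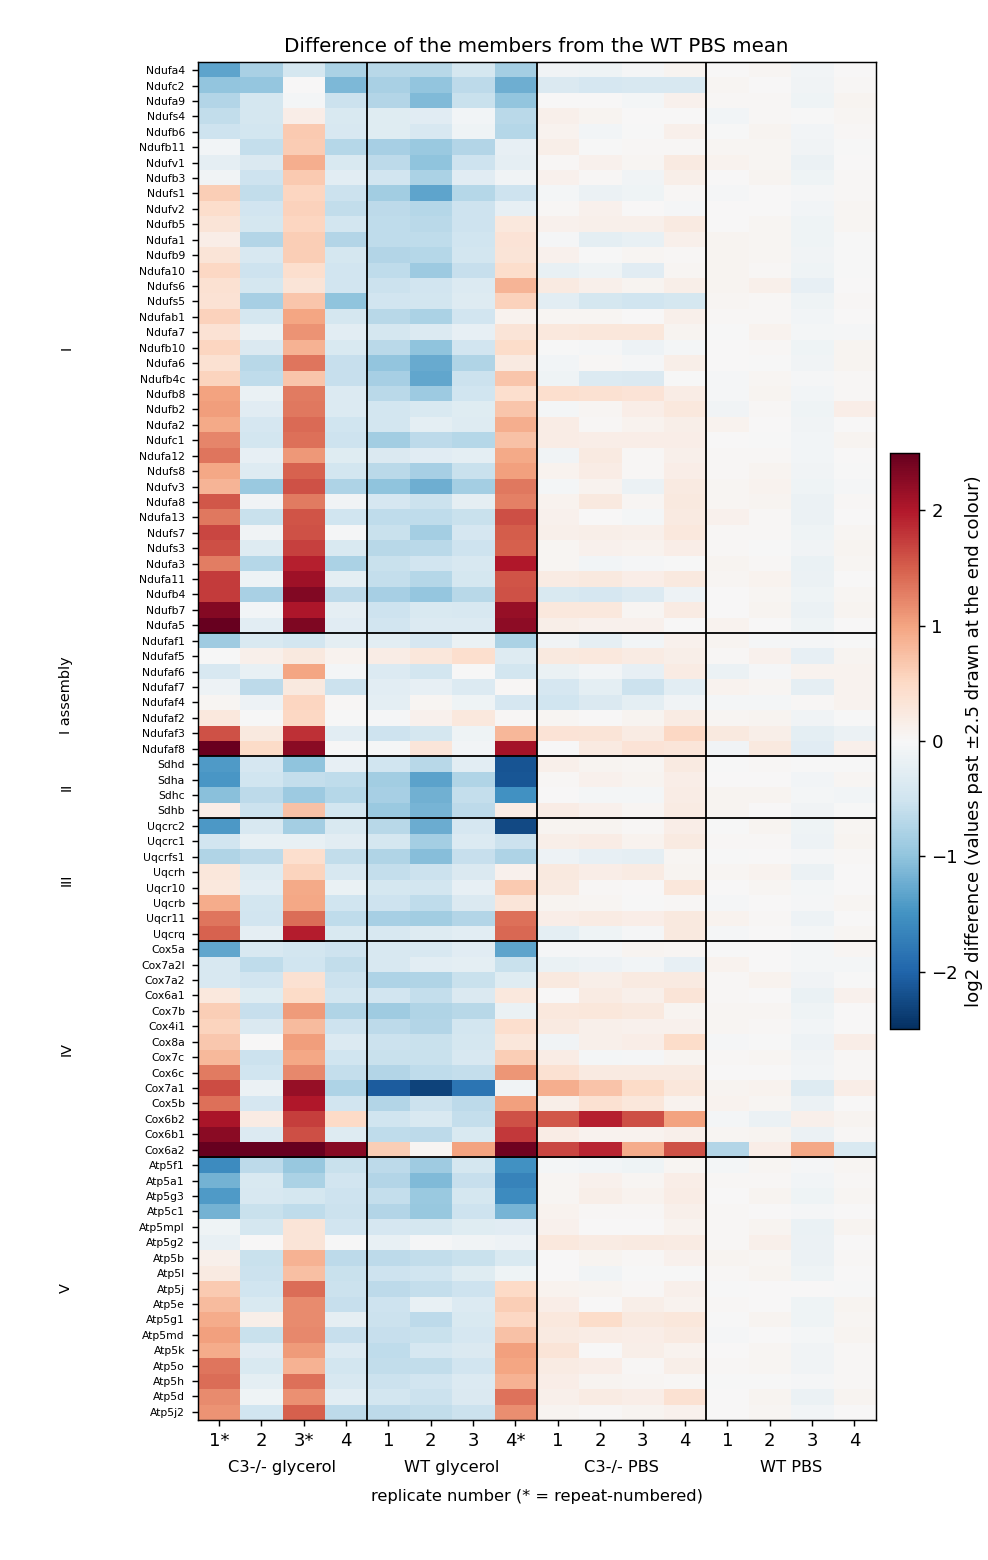
Log2 difference from the WT PBS mean of 88 of the 89 members (rows, by complex) in each library (columns, by group), in which blue is lower and red higher and values past ±2.5 have the end colour. The 3 repeat-numbered libraries, marked with a star, hold both strong reds and strong blues, and the other 5 glycerol libraries are blue in nearly every row, with the lowest value of all at -2.32 for Cox7a1 in WT glycerol library 2.

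Complex II had the lowest median log2 difference after glycerol of the 5 complexes, under both labels and with or without the repeat-numbered libraries. Succinate dehydrogenase has a flavoprotein (Sdha) and an iron-sulfur protein (Sdhb) that oxidize succinate, and a pair of membrane anchors (Sdhc and Sdhd) that bind ubiquinone. Sdha had normalized counts of 7211, 14037, 13184 and 12825 in glycerol libraries 1 to 4 labelled C3-/- and 10852, 7857, 11795 and 4487 in WT glycerol libraries 1 to 4, against 20306, 21513, 20937 and 22259 in PBS libraries labelled C3-/- and 20008, 19940.2, 18974 and 20602 in WT PBS libraries. All 8 glycerol values of Sdha lay below all 8 PBS values, and the lowest were repeat-numbered, WT glycerol library 4 and glycerol library 1 labelled C3-/-. The means were 11814 ± 3111 in libraries labelled C3-/- given glycerol, 8748 ± 3299 in WT given glycerol, 21254 ± 832 in C3-/- PBS and 19881 ± 674 in WT PBS (SD, n = 4 each).

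Under the C3-/- label the log2 difference of Sdha was -0.89 (SE 0.27, adjusted p 0.0683) with all libraries and -0.66 (SE 0.14, adjusted p 0.00434) without the 3, so that it passed only in the second fit. In WT, Sdha fell by 1.28 (SE 0.27, adjusted p 0.00341), and by 0.99 without the repeat-numbered library (SE 0.12, adjusted p 2.57e-05). For Sdhc, glycerol libraries 1 to 4 had 4091, 5404, 4509 and 5163 under the C3-/- label and 4771, 3682, 5593 and 2967 in WT, against 8566, 8203, 8232 and 9627 in PBS libraries labelled C3-/- and 8878, 8903, 8165 and 8041 in WT PBS libraries. Sdhc also had all glycerol values below all PBS values. It fell under both labels with all libraries, with differences of -0.86 (SE 0.18, adjusted p 0.0117) under the C3-/- label and -1.04 (SE 0.18, adjusted p 0.000843) in WT, and without the 3 they were -0.71 and -0.88, both called.

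The normalized counts of Sdhd were 3188, 6358, 4207 and 7345 in glycerol libraries labelled C3-/- and 5986, 5252, 7102 and 1892 in WT glycerol libraries, against 9205, 8859, 8731 and 9907 in PBS libraries labelled C3-/- and 8389, 8688, 8434 and 8377 in WT PBS libraries. The glycerol and PBS values of Sdhd did not overlap, yet the spread among glycerol libraries left adjusted p values of 0.139 under the C3-/- label (difference -0.87, SE 0.34) and 0.0647 in WT (difference -0.90, SE 0.34). Without the 3 its differences were -0.42 and -0.48, both called. Sdhb had normalized counts of 9714, 6015, 14413 and 6281 in glycerol libraries 1 to 4 labelled C3-/- and 4569, 3886, 5559 and 9862 in WT glycerol libraries 1 to 4, against 9920.2, 9310.2, 8965 and 10086 in PBS libraries labelled C3-/- and 9159.8, 8768, 8219 and 8645 in WT PBS libraries. Sdhb alone of the 4 was not lowered in the repeat-numbered libraries: glycerol library 3 labelled C3-/- and WT glycerol library 4 were above all PBS libraries of their label, and glycerol library 1 labelled C3-/- was among them. Its difference without the 3 was -0.64 (SE 0.12, adjusted p 0.00231) under the C3-/- label and -0.91 (SE 0.10, adjusted p 1.57e-05) in WT, against -0.16 and -0.64 with all libraries, neither called.

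**Figure D4:**
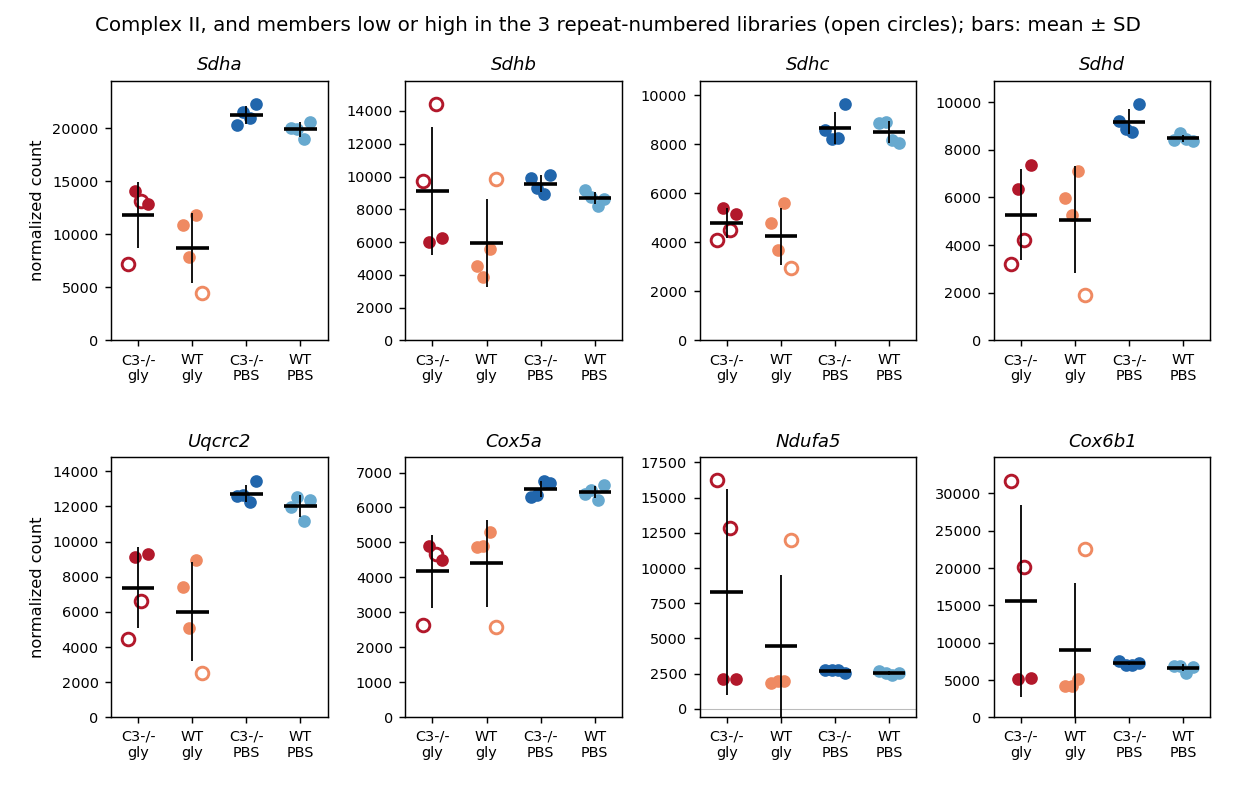
Normalized count (y axis, from 0 except for Ndufa5) in each library by group (x axis) for the 4 complex II genes, Uqcrc2, Cox5a, Ndufa5 and Cox6b1; bars are the mean and SD, and open circles are the 3 repeat-numbered libraries. These libraries hold the lowest values of Sdhc, Sdhd and Uqcrc2 in each glycerol group and the highest of Sdhb, Ndufa5 and Cox6b1.

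The promoters of complex II are shown because its genes fell together in the fit without the repeat-numbered libraries; that of Sdhc is not in the table used. Each window runs from 250 bases before to 50 after the transcription start in RefSeq (GRCm38.p6), 5′ to 3′ on the gene's strand, and capitals mark matches, on either strand, to GCGCANGCG (a core of the motif of NRF1, an activator of respiratory genes), CCGGAAG (a core of the ETS motif bound by GABPA) or TCAAGGTCA (the extended half-site of the estrogen-related receptors).
Sdha, chr13:74350191-74350490, minus strand: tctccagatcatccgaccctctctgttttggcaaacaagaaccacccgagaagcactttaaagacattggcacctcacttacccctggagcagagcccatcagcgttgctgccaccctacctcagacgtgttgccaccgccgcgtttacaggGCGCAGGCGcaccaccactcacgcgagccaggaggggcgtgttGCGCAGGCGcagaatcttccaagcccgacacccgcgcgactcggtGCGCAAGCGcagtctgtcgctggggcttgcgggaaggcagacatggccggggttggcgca
Sdhb, chr4:140961021-140961320, plus strand: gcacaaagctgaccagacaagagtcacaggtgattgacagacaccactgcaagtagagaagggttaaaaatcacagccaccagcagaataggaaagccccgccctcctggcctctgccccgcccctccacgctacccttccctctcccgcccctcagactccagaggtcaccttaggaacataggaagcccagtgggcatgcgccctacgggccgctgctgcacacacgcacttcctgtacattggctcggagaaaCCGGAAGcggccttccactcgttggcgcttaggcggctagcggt
Sdhd, chr9:50603800-50604099, minus strand: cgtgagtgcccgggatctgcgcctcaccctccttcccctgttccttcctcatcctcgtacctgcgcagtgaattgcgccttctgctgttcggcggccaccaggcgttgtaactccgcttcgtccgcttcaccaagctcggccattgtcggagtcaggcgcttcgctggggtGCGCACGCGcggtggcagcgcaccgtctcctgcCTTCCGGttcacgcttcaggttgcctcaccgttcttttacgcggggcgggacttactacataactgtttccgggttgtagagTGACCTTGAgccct

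The Sdha window holds 3 matches to the NRF1 core, that of Sdhb 1 match to the ETS core and that of Sdhd 1 match to each of the 3 motifs. Of the 74 members with a window, 22 (29.7%) had the NRF1 core against 7.03% of 27025 genes, 19 (25.7%) had the ETS core against 9.93%, and 2 had the estrogen-related receptor site against 0.466%. The core of the YY1 motif, AAGATGGCG, was present in 8 members (10.8%) and 1.64% of all genes. A match to these letters is a description of the sequence and not a measured binding site.

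Most members of complex I, the NADH dehydrogenase, fell without the repeat-numbered libraries and few with them. With all libraries 1 of its 46 members fell under the C3-/- label and 4 in WT, where 1.96% and 13.3% of all tested genes fell. Those shares of all genes were 10.8% and 29.4% without the 3. Without the 3, 6 of 7 core subunits, 28 of 31 accessory subunits and none of the 8 assembly factors fell under the C3-/- label, with medians of -0.48, -0.49 and -0.10. In WT 7 of 7 core subunits and 31 of 31 accessory subunits fell, while of the assembly factors 2 fell and 1 rose, and the medians were -0.65, -0.61 and -0.19. The 8 are only the genes named Ndufaf. Of a wider list of 16 complex I assembly genes, 2 fell and 1 rose under the C3-/- label without the 3, and 7 fell and 2 rose in WT. A difference between subunits and assembly factors was not tested.

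Ndufs1 (chr1:63143596-63176833, minus strand, GRCm38) encodes the largest core subunit, which carries electrons through its iron-sulfur clusters. The normalized counts of Ndufs1 were 11575, 4935, 10990.2 and 5203 in glycerol libraries labelled C3-/- and 4101, 2999.8, 4572 and 5294 in WT glycerol libraries, against 7233, 6767, 7011 and 7673 in PBS libraries labelled C3-/- and 7391, 7619, 7425 and 7692 in WT PBS libraries. The WT glycerol values were all below all PBS values, whereas among glycerol libraries labelled C3-/- only the repeat-numbered ones were above PBS. Under the C3-/- label its difference was 0.08 (SE 0.26, adjusted p 0.858) with all libraries and -0.50 (SE 0.13, adjusted p 0.0159) without the 3. In WT it fell, with a difference of -0.86 (SE 0.26, adjusted p 0.0255), and without the 3 of -0.97 (SE 0.11, adjusted p 2.06e-05). Its exons overlap those of Eef1b2 on the other strand, and the strand setting of the counting is not given.

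Ndufv1, which binds NADH and holds the flavin, stood at 5048, 4613, 11131 and 4543 in glycerol libraries labelled C3-/- and 3774, 2955, 4164 and 5057 in WT glycerol libraries, against 6068, 6394, 6143 and 6912 in PBS libraries labelled C3-/- and 6311, 6154, 5364 and 5965 in WT PBS libraries. Glycerol library 3 labelled C3-/- was the 1 glycerol library above every PBS value. It was called without the 3 in both comparisons, with differences of -0.48 (adjusted p 0.0135) under the C3-/- label and -0.72 (adjusted p 0.000108) in WT, and in neither with all libraries (adjusted p 0.762 and 0.0893). Ndufab1, the mitochondrial acyl carrier protein, had -0.49 (adjusted p 0.00115) under the C3-/- label and -0.66 (adjusted p 1.17e-05) in WT without the 3, against 0.12 and -0.47 with all libraries, neither called.

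Of the accessory subunits, Ndufa4, Ndufa9 and Ndufc2 passed the test with all libraries. Ndufa4 had normalized counts of 4065, 5809, 7548 and 5862 in glycerol libraries 1 to 4 labelled C3-/- and 6329.7, 6325, 7511 and 5641 in WT glycerol libraries 1 to 4, against 9587, 9515, 9997 and 10636 in PBS libraries labelled C3-/- and 10330.2, 10565, 9689.9 and 10245 in WT PBS libraries. Ndufa4 fell under both labels, with differences of -0.80 (SE 0.17, adjusted p 0.0121) under the C3-/- label and -0.67 (SE 0.17, adjusted p 0.00993) in WT, and no glycerol value reached the PBS range. Without the 3 the differences of Ndufa4 were -0.77 and -0.61, both called. Ndufc2, a subunit of the membrane arm, had -0.36 (SE 0.21, adjusted p 0.274) under the C3-/- label and fell in WT, with -0.92 (SE 0.21, adjusted p 0.005), and without the 3 it had -0.64 and -0.82, both called. Ndufa9, which sits near the ubiquinone site, had -0.46 (SE 0.16, adjusted p 0.105) under the C3-/- label and fell in WT, with -0.84 (SE 0.16, adjusted p 0.00164), and without the 3 it had -0.51 (adjusted p 0.0103) and -0.79, both called.

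The assembly factors help build complex I and are not part of the finished enzyme. Without the 3, Ndufaf1 (-0.28 (SE 0.09, adjusted p 0.0157)) and Ndufaf7 (-0.27 (SE 0.10, adjusted p 0.0291)) fell in WT and Ndufaf5 rose (0.30 (SE 0.09, adjusted p 0.0139)). For Ndufaf5, glycerol libraries 1 to 4 had 332, 365, 394 and 354 under the C3-/- label and 378, 404, 448 and 266 in WT, against 393, 397, 381 and 368 in PBS libraries labelled C3-/- and 338, 356, 290.0 and 349.8 in WT PBS libraries. The values of Ndufaf5 in WT glycerol libraries 1 to 3 were above all WT PBS values and that in library 4 below them. With all libraries none of the 8 was called in either comparison. Ndufaf8 had the widest spread of the 8, at 1555, 390.5, 1338 and 278 in glycerol libraries labelled C3-/- and 272, 343, 265 and 1186 in WT glycerol libraries, against 278, 328, 354 and 343 in PBS libraries labelled C3-/- and 263, 330.3, 230.1 and 304 in WT PBS libraries, with the 3 repeat-numbered libraries highest.

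Complex III passes electrons from ubiquinol to cytochrome c. With all libraries none of its 8 members fell under the C3-/- label and 3 fell in WT: Uqcrc2, Uqcrc1 and Uqcrfs1. The shares of all tested genes that fell were 1.96% and 13.3%. Uqcrc2 had normalized counts of 4464, 9135, 6633 and 9273 in glycerol libraries 1 to 4 labelled C3-/- and 7409.5, 5098, 8975 and 2516 in WT glycerol libraries 1 to 4, against 12575, 12645, 12268 and 13444 in PBS libraries labelled C3-/- and 11997, 12546, 11163 and 12383 in WT PBS libraries. Every glycerol value of Uqcrc2, a core protein of the complex, lay below every PBS value. The difference was -0.85 (SE 0.32, adjusted p 0.13) under the C3-/- label and -1.15 (SE 0.32, adjusted p 0.0164) in WT, and without the 3 it was -0.47 (adjusted p 0.0575) and -0.78 (adjusted p 0.000593). Its exons overlap those of Pdzd9 on the other strand.

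Uqcrfs1, the Rieske iron-sulfur protein, had -0.27 (SE 0.22, adjusted p 0.414) under the C3-/- label and fell in WT, with -0.79 (SE 0.22, adjusted p 0.0151), in the fit of all libraries, and without the 3 it had -0.50 (adjusted p 0.0094) and -0.80, both called. Uqcrc1, the other core protein, had -0.44 (SE 0.14, adjusted p 0.0797) under the C3-/- label and fell in WT by 0.54 (SE 0.14, adjusted p 0.011), and without the 3 it had -0.38 (adjusted p 0.0389) and -0.55, both called. Uqcrq, a small subunit near the ubiquinol site, ran the other way in the repeat-numbered libraries. For Uqcrq, glycerol libraries 1 to 4 had 10546, 3244, 14762 and 2899 under the C3-/- label and 2877, 3023, 3177 and 10273 in WT, against 3179, 3538, 3699.8 and 4462 in PBS libraries labelled C3-/- and 3708, 3834, 3687 and 3935 in WT PBS libraries. Without the 3 its difference was -0.27 (SE 0.11, adjusted p 0.104) under the C3-/- label and -0.33 (SE 0.10, adjusted p 0.0134) in WT, against 0.74 and 0.12 with all libraries, neither called. Cyc1, outside the members, had -0.50 (SE 0.18, adjusted p 0.109) under the C3-/- label and fell in WT (-0.60 (SE 0.18, adjusted p 0.0233)), and for cytochrome c itself (Cycs) the differences were 0.35 (SE 0.25, adjusted p 0.369) and -0.14 (SE 0.25, adjusted p 0.715). Without the 3, Cyc1 had -0.42 (adjusted p 0.0168) and -0.52, both called, and Cycs -0.07 and -0.31, neither called.

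Complex V makes ATP from the proton gradient. With all libraries 2 of 17 members fell under the C3-/- label and 4 in WT, and without the 3 16 fell under each label. The shares of all tested genes that fell were 1.96% and 13.3% with all libraries and 10.8% and 29.4% without the 3. Atp5f1 had normalized counts of 5207, 9840.3, 8071 and 10506 in glycerol libraries 1 to 4 labelled C3-/- and 9888, 8433, 11490.5 and 5456 in WT glycerol libraries 1 to 4, against 15062, 14854, 14427 and 16035 in PBS libraries labelled C3-/- and 14925, 16089, 15183 and 15966 in WT PBS libraries. Atp5f1, a subunit of the stator stalk, fell under both labels with all libraries, by 0.89 (SE 0.24, adjusted p 0.0391) under the C3-/- label and 0.87 (SE 0.24, adjusted p 0.0145) in WT, and its glycerol values did not overlap those after PBS. Without the 3 it fell by 0.57 and 0.66. Atp5c1, the rotating gamma subunit, also fell under both, with -0.79 (SE 0.17, adjusted p 0.0147) and -0.83 (SE 0.17, adjusted p 0.00299), and without the 3 with -0.61 and -0.73.

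The catalytic head is built of alpha (Atp5a1) and beta (Atp5b) subunits. For Atp5a1, glycerol libraries 1 to 4 had 21382, 37373, 27998 and 34527 under the C3-/- label and 29313, 22401, 32295 and 15205 in WT, against 50295, 52432, 50169 and 54021 in PBS libraries labelled C3-/- and 49156, 49509, 46016 and 49140.5 in WT PBS libraries. With all libraries Atp5a1 had -0.80 (SE 0.24, adjusted p 0.0632) under the C3-/- label and fell in WT, with -1.02 (SE 0.24, adjusted p 0.0061), and without the 3 it had -0.53 (adjusted p 0.0182) and -0.81, both called. The beta subunit gene Atp5b had 62067, 38419.6, 103433 and 36230.2 in glycerol libraries labelled C3-/- and 35892, 36945, 38753 and 43595 in WT glycerol libraries, against 57100.1, 59649.7, 57645 and 61572 in PBS libraries labelled C3-/- and 59608, 58472, 51337 and 58231 in WT PBS libraries. All WT glycerol values were below all PBS values, and glycerol libraries 1 and 3 labelled C3-/- were above them. Without the 3 its differences were -0.66 (SE 0.12, adjusted p 0.0017) and -0.61 (SE 0.10, adjusted p 0.000292), against -0.11 and -0.55 with all libraries, neither called.

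Atp5g1, Atp5g2 and Atp5g3 encode the same mature c subunit of the membrane ring. With all libraries Atp5g3 had -0.81 (SE 0.25, adjusted p 0.0721) under the C3-/- label and fell in WT, with -0.88 (SE 0.25, adjusted p 0.018), and without the 3 it had -0.57 (adjusted p 0.00505) and -0.66, both called. Atp5g2 was called in neither, with -0.19 and -0.11 with all libraries, and without the 3 it had -0.23 (SE 0.08, adjusted p 0.0522) under the C3-/- label and -0.10 (SE 0.07, adjusted p 0.236) in WT. The normalized counts of Atp5g2 were 2172, 2461, 3070.4 and 2436 in glycerol libraries labelled C3-/- and 2160.1, 2412, 2313 and 2261 in WT glycerol libraries, against 2958, 2835, 2857 and 2843 in PBS libraries labelled C3-/- and 2509, 2673, 2211 and 2462 in WT PBS libraries. The Atp5g2 values overlapped between glycerol and PBS within each label. The log2 ratio of Atp5g2 to Atp5g3 was higher after glycerol by 0.62 under the C3-/- label and 0.78 in WT, each with an exact two-sided permutation p of 0.0286, the smallest that 4 against 4 allows, and 0.0889 after adjustment over the 28 ratio tests made. Without the 3 the ratio was higher by 0.34 under the C3-/- label (exact permutation p 0.0667, adjusted 0.144) and by 0.56 in WT (exact permutation p 0.0286, adjusted 0.1), each the smallest p that the libraries left allow. Other pairs reached the same p with all libraries. After glycerol they were Cox6a2 to Cox6a1 (1.93) and Cox6b2 to Cox6b1 (-1.08) under the C3-/- label. In WT it was Atp5g1 to Atp5g3 (0.63). Between the labels it was Cox6a2 to Cox6a1 (1.96) after glycerol. After PBS it was Cox6b2 to Cox6b1 (1.405), Cox7a2l to Cox7a2 (-0.355) and Atp5g1 to Atp5g3 (0.20). No adjusted p of a ratio was below 0.05. Cox6a2 and Cox6b2 are members only through libraries labelled C3-/-, which favours higher ratios of these genes under that label.

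Complex IV reduces oxygen to water. With all libraries none of its 14 members fell under the C3-/- label and Cox7a2 and Cox7a2l fell in WT. Without the 3, 12 and 13 fell. Among all tested genes, 1.96% and 13.3% fell with all libraries and 10.8% and 29.4% without the 3. Cox7a2, the form of subunit VIIa made in most tissues, had -0.47 (SE 0.19, adjusted p 0.145) under the C3-/- label and -0.60 (SE 0.19, adjusted p 0.0286) in WT with all libraries. Cox7a2l, a relative that links complexes III and IV, had -0.39 (SE 0.12, adjusted p 0.0645) and -0.37 (SE 0.12, adjusted p 0.0324). Without the 3, Cox7a2 had -0.72 and -0.69 and Cox7a2l -0.48 and -0.31, all called. The subunits Cox4i1 and Cox5a bind each other early in assembly. Cox5a had normalized counts of 2626, 4896, 4667 and 4492 in glycerol libraries 1 to 4 labelled C3-/- and 4864, 4894, 5293 and 2569 in WT glycerol libraries 1 to 4, against 6294, 6349, 6755 and 6688 in PBS libraries labelled C3-/- and 6394, 6509.8, 6218 and 6639.6 in WT PBS libraries. All glycerol values of Cox5a lay below all PBS values, and its differences without the 3 were -0.48 (SE 0.07, adjusted p 0.000628) and -0.36 (SE 0.06, adjusted p 0.000415), against -0.69 and -0.60 with all libraries, neither called. Cox4i1 had -0.59 (SE 0.09, adjusted p 0.000871) and -0.61 (SE 0.08, adjusted p 5.69e-05) without the 3, against -0.03 and -0.35 with all libraries, neither called.

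Some complex IV subunits have a second form that heart and skeletal muscle use (Cox7a1, Cox6a2 and Cox8b) or that is known from testis (Cox6b2). Cox7a1 (chr7:30184144-30186078, plus strand, GRCm38) had the largest WT fall without the 3 of any member. For Cox7a1, glycerol libraries 1 to 4 had 671, 194, 982 and 125 under the C3-/- label and 49.9, 42.2, 60.3 and 202 in WT, against 403, 354, 299.8 and 261 in PBS libraries labelled C3-/- and 226, 230.1, 172 and 240.4 in WT PBS libraries. WT glycerol libraries 1 to 3 lay below every other library, and glycerol libraries 1 and 3 labelled C3-/- above all PBS libraries. Under the C3-/- label the difference was 0.13 (SE 0.58, adjusted p 0.894) with all libraries and -1.06 (SE 0.22, adjusted p 0.00541) without the 3, and in WT it was -1.58 (SE 0.58, adjusted p 0.0559) with all libraries and -2.08 (SE 0.20, adjusted p 4.22e-06) without the repeat-numbered one.

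The normalized counts of Cox6a2 were 568, 169, 398 and 133 in glycerol libraries labelled C3-/- and 41.4, 27.5, 54.7 and 147 in WT glycerol libraries, against 86.6, 102, 51.5 and 82.6 in PBS libraries labelled C3-/- and 15.6, 29.9, 52.7 and 20.1 in WT PBS libraries. Cox6a2 (chr7:128205435-128206387, minus strand) was highest in the repeat-numbered libraries of each label, and its glycerol libraries labelled C3-/- were all above every PBS library. The difference after glycerol was 1.76 (SE 0.55, adjusted p 0.0722) under the C3-/- label and 1.03 (SE 0.55, adjusted p 0.182) in WT, and without the 3 it was 0.93 (adjusted p 0.139) and 0.56 (adjusted p 0.223). Cox6b2 had normalized counts of 250.5, 69.2, 200.4 and 85.1 in glycerol libraries 1 to 4 labelled C3-/- and 41.9, 45.7, 39.1 and 181 in WT glycerol libraries 1 to 4, against 178, 234, 184 and 121 in PBS libraries labelled C3-/- and 57.8, 53.8, 65.4 and 63.1 in WT PBS libraries. Cox6b2 (chr7:4751792-4753094, minus strand) was higher in each PBS library labelled C3-/- than in each WT PBS library. Without the 3 it fell under the C3-/- label, by 1.18 (SE 0.22, adjusted p 0.00244), and in WT by 0.50 (SE 0.19, adjusted p 0.044), and with all libraries it had -0.41 and 0.02, neither called.

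Cox8b, under the limit of the rule, was at 164, 39.1, 60.5 and 29.5 in glycerol libraries labelled C3-/- and listed at 0 in all 4 WT glycerol libraries. After PBS it was at 50.3, 68.3, 49.7 and 13.2 under the C3-/- label and at 0.853, 0, 4.74 and 0 in WT. Every library labelled C3-/- was above every WT library in both treatments. Of 5 skeletal muscle markers in the matrix out of 11 listed, the summed normalized count ranged from 159 to 869 in glycerol libraries labelled C3-/- (159 to 681 without the repeat-numbered ones), from 35.9 to 131 in WT glycerol libraries (35.9 to 76.8 without the repeat-numbered one), from 592 to 781 in C3-/- PBS and from 357 to 419 in WT PBS. Pvalb, which distal tubule cells also express, made up 85.5% to 93.8% of that sum in glycerol libraries labelled C3-/-, 74.3% to 95.3% in PBS libraries labelled C3-/- and 91.9% to 94.2% in WT PBS libraries. In WT glycerol libraries 1 to 4 its share was 53.2%, 26.2%, 72.7% and 6.49%, lowest in the repeat-numbered library. The part of muscle RNA in these isoforms was not tested.

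**Figure D5:**
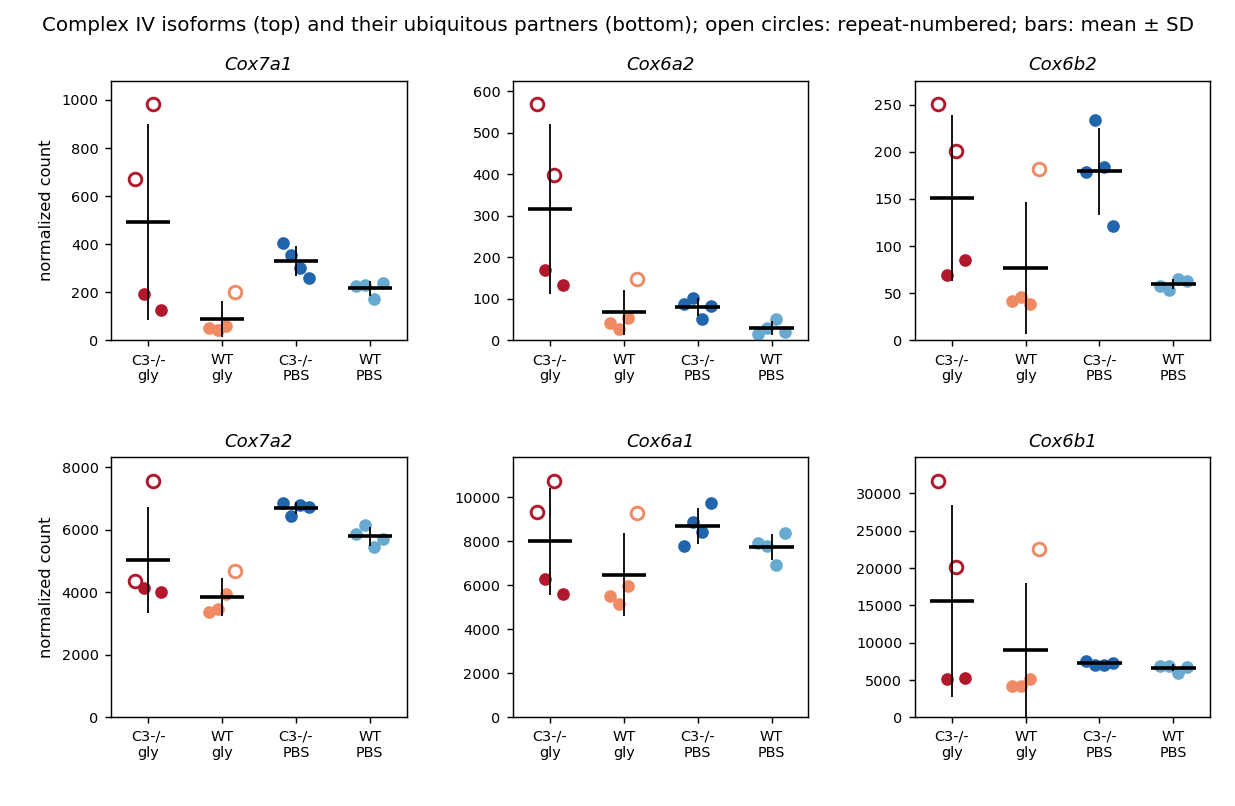
Normalized count (y axis, from 0) in each library by group (x axis) of Cox7a1, Cox6a2 and Cox6b2 (top) and of the forms made in most tissues, Cox7a2, Cox6a1 and Cox6b1 (bottom); bars are the mean and SD, and open circles are the 3 repeat-numbered libraries. WT glycerol libraries 1 to 3 are the lowest for Cox7a1, and Cox6b2 is higher in every PBS library labelled C3-/- than in any WT PBS library.

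The promoters of the VIIa pair are shown because Cox7a1 and Cox7a2 are the alternative forms of one subunit; neither window (250 bases before to 50 after the start, RefSeq, GRCm38.p6) holds a match to the 4 motifs, which says only that these letters are not in it.
Cox7a1, chr7:30183921-30184220, plus strand: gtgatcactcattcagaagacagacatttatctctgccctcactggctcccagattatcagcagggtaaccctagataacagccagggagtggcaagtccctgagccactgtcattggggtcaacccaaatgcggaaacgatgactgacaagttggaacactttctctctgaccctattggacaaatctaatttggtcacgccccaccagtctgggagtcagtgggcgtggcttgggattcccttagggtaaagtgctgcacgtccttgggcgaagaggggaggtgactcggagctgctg
Cox7a2, chr9:79759804-79760103, minus strand: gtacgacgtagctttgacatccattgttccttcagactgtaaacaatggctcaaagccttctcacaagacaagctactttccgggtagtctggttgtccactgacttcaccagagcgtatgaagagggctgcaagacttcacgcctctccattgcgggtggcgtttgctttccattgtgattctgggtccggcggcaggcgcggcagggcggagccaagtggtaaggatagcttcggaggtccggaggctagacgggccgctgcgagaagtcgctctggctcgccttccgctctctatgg

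Among glycerol libraries, few members were called between the C3-/- label and WT when all libraries were used. With all libraries 3 of 89 members were called higher and none lower, where 6.38% of all tested genes were higher and 4.85% lower, and the median was 0.46 against 0.04 for all genes. The 3 were Cox7a1 (2.31 (SE 0.58, adjusted p 0.017)), Cox6a2 (2.25 (SE 0.55, adjusted p 0.0143)) and Ndufs1 (0.86 (SE 0.26, adjusted p 0.0456)). In none of the 89 were the 4 values of one label all above those of the other (6.21% of tested genes were all higher under the C3-/- label and 5.07% all lower). Of the glycerol libraries, 2 labelled C3-/- and 1 WT are repeat-numbered, so the label and the numbering are partly confounded.

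Without the 3, with 2 libraries against 3, 18 members were higher and 3 lower, where 15.7% of all genes were higher and 14.7% lower, and the median was 0.16 against 0.02. Of the 18 that were higher, 11 were in complex I, 4 of them core subunits, 2 in complex II, 1 in complex III, 3 in complex IV and 1 in complex V. Sdha was higher under the C3-/- label by 0.42 (SE 0.14, adjusted p 0.0422), Sdhb by 0.41 (SE 0.12, adjusted p 0.0255), Ndufs1 by 0.40 (SE 0.14, adjusted p 0.0425), Cox6a2 by 1.89 (SE 0.45, adjusted p 0.00829) and Cox7a1 by 1.61 (SE 0.24, adjusted p 0.000472). Cox6a2 and Cox6b2, both among the 18, passed the mean limit of the members only through libraries labelled C3-/-, which favours such a rise. The 3 that were lower were Ndufs5 (-0.50 (SE 0.09, adjusted p 0.00185)), Cox7a2l (-0.32 (SE 0.08, adjusted p 0.00892)) and Ndufa3, an accessory subunit of complex I named after its values were seen (-0.27 (SE 0.08, adjusted p 0.0294)). Here 39 members did not overlap in the higher direction and 10 in the lower one, against 27.1% and 26.7% of all tested genes.

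The injury marker Havcr1 did not overlap between the labels after glycerol, while with all libraries the summed proximal tubule markers did. For Havcr1, glycerol libraries 1 to 4 had 3449.7, 3579, 1088 and 9458 under the C3-/- label and 57982, 46259, 52729 and 28049.5 in WT, against 21.7, 7.51, 18.7 and 22.6 in PBS libraries labelled C3-/- and 21.5, 94.5, 40.2 and 28.1 in WT PBS libraries. Havcr1, which injured proximal tubule cells express, was thus lower in each glycerol library labelled C3-/- than in each WT glycerol library. The summed counts of 10 proximal tubule markers ranged from 84904 to 323857 in glycerol libraries labelled C3-/- (158060.1 to 158617 without the 3), from 32134 to 149657 in WT glycerol libraries (the same range without the repeat-numbered one), from 308148 to 415120 in PBS libraries labelled C3-/- and from 334210 to 377920 in WT PBS libraries. With all libraries 1 of these 10 markers fell after glycerol under the C3-/- label and 8 in WT, and without the 3 it was 4 and 10. The shares of all tested genes that fell were 1.96% and 13.3%, and 10.8% and 29.4% without the 3. Between the labels after glycerol, none of the 10 was called with all libraries (median log2 difference 0.94), and 1 was higher under the C3-/- label without the 3 (median 1.16). Of 5 markers of the thick ascending limb 2 were called higher under the C3-/- label with all libraries and 5 without the 3, and of 9 markers of the distal tubule and collecting duct it was 5 and 7, with none lower. Among all tested genes, 6.38% were higher and 4.85% lower with all libraries, and 15.7% and 14.7% without the 3. The part of the makeup of the tissue in the members' differences was not tested.

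After PBS no member was called between the labels by limma with all libraries, where 1.04% of all tested genes were called higher and 1.19% lower under the C3-/- label. At an unadjusted p below 0.05 there were 2 members higher, Cox6b2 and Cox6a2, and none lower, where 4.84% and 5.61% of all tested genes were. Both genes reached the mean limit of the members only through libraries labelled C3-/-. The median was 0.09 against 0.02 for all genes. The PBS libraries are the same in both fits, and the spread estimated without the 3 glycerol libraries was smaller. With it 11 members were called higher and 5 lower, where 9.35% and 10.2% of all genes were. Without overlap, 23 members were higher and 6 lower in PBS libraries labelled C3-/-, against 13.9% and 13.1% of all genes.

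The largest of these PBS differences without the 3 were Cox6b2 (1.53 (SE 0.18, adjusted p 0.000134)) and Cox6a2 (1.52 (SE 0.35, adjusted p 0.0106)). Ndufs5 (chr4:123712710-123718202, minus strand), an accessory subunit of complex I, and Ndufc2 were lower, with -0.41 (SE 0.07, adjusted p 0.0022) and -0.40 (SE 0.07, adjusted p 0.00278). Ndufs5 had normalized counts of 2726, 1197, 3439 and 1051 in glycerol libraries 1 to 4 labelled C3-/- and 1529, 1543, 1693 and 3161 in WT glycerol libraries 1 to 4, against 1759.8, 1569, 1503 and 1565 in PBS libraries labelled C3-/- and 2179.7, 2169.7, 1967 and 2173 in WT PBS libraries. Each PBS value of Ndufs5 under the C3-/- label lay below each WT PBS value. Of the 8 PBS libraries, all 4 WT libraries and 1 labelled C3-/- had Ddx3y at or above 100, so the genotype label and the Y-linked transcript nearly coincide. With a term for that transcript added to the fit without the 3, a choice made after seeing the data, 1 member was higher and 2 were lower.

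The difference between the glycerol responses under the C3-/- label and in WT (the interaction) was called in no member by limma with all libraries, where 0.222% of all tested genes had a higher response under the C3-/- label and 0.216% a lower one. At an unadjusted p below 0.05, 2 members, Ndufaf4 and Ndufs1, had a higher one and none a lower one, where 5.60% and 4.87% of all tested genes did. Without the 3, 1 member was called, Cox7a1 (1.02 (SE 0.30, adjusted p 0.049)), where 4.99% and 5.45% of all genes were called. The members' median difference in response was 0.39 with all libraries and 0.05 without the 3, against 0.03 and 0.03 for all genes. That WT had 15 falls and the C3-/- label 4 with all libraries is therefore not shown to be a difference between the labels.

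A fit on all 16 libraries that has a term for the repeat-numbered libraries and a term for Ddx3y at or above 100 gave counts of falls after glycerol nearer to those without the 3 libraries than to those with them. It called 57 lower and 0 higher (8.47% and 10.3% of all genes) after glycerol under the C3-/- label and 79 lower and 0 higher (26.2% and 23.1% of all genes) in WT. Between the labels it called 0 lower and 29 higher (14.3% and 19.3% of all genes) after glycerol and 0 lower and 1 higher (2.11% and 1.38% of all genes) after PBS, and for the interaction 0 lower and 2 higher (3.79% and 4.97% of all genes). The fit without the 3 libraries that has the Ddx3y term called, between the labels, 3 lower and 11 higher (12.7% and 13.3% of all genes) after glycerol and 2 lower and 1 higher (3.29% and 2.10% of all genes) after PBS, and for the interaction 0 lower and 1 higher (6.28% and 6.59% of all genes). The falls after glycerol thus varied with the fit, from 4 and 15 with all libraries and no terms to 57 and 79 with both terms. All repeat-numbered libraries are glycerol libraries, so their term takes up their shift. The fit with both terms is therefore no separate support for the falls without the 3. The calls between the labels also varied with the fit.

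Other genes of mitochondrial energy metabolism were counted from lists. With all libraries, 1.96% of all tested genes fell and 3.68% rose under the C3-/- label, and 13.3% fell and 12.5% rose in WT. Without the 3, 10.8% fell and 12.5% rose under the C3-/- label, and 29.4% fell and 26.8% rose in WT. Of 13 genes of the citric acid cycle, 1 fell under the C3-/- label and 8 in WT with all libraries, and 6 and 10 without the 3. Of the 13 subunits encoded by mitochondrial DNA, none fell under the C3-/- label and 2 in WT with all libraries, and 2 and 9 fell without the 3, with medians of -0.43 and -0.64. Of 78 mitochondrial ribosomal protein genes none fell with all libraries, while 2 rose under the C3-/- label and 7 in WT, and without the 3 6 and 8 fell and 7 and 26 rose. The rises with all libraries were a smaller share than among all genes under each label. Of 95 cytosolic ribosomal protein genes tested, 9 rose under the C3-/- label and 47 in WT with all libraries, and 30 and 88 without the 3. Without the 3, the respiratory subunits and the cytosolic ribosomal proteins thus moved in opposite directions in WT, where 81 of 89 and 2 of 95 fell. In WT glycerol library 4, which is repeat-numbered, both were higher. The members' median log2 difference from the WT PBS mean was 0.32 there. Its summed cytosolic ribosomal count was 1804877, against 405214 to 445018 in WT PBS libraries.

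Several regulators of mitochondrial biogenesis fell in WT. Ppargc1a, a coactivator that drives these genes, had -0.88 (SE 0.30, adjusted p 0.102) under the C3-/- label and fell in WT (-2.05 (SE 0.30, adjusted p 0.000266)), and between the labels after glycerol it was higher under the C3-/- label (1.12 (SE 0.30, adjusted p 0.0272)). Ppargc1b, its relative, fell in WT (-0.92 (SE 0.32, adjusted p 0.0446)) and was higher under the C3-/- label after glycerol (1.50 (SE 0.32, adjusted p 0.00645)). Pprc1, a further relative, ran the other way, with every glycerol value above every PBS value. It had 2317, 749, 1418 and 686 in glycerol libraries labelled C3-/- and 965, 1561, 903 and 2644.5 in WT glycerol libraries. Its PBS values were 231, 245, 326.5 and 276 under the C3-/- label and 319, 343, 481 and 450 in WT. The nuclear receptor gene Esrrb fell in WT (-2.22 (SE 0.36, adjusted p 0.000559)), and its relative Esrra, whose protein binds respiratory gene promoters, had -0.59 (SE 0.37, adjusted p 0.251). In WT the DNA-binding activators Nrf1 and Gabpa had 0.36 (SE 0.15, adjusted p 0.0891) and -0.79 (SE 0.53, adjusted p 0.287), and Tfam, whose protein packs mitochondrial DNA and activates its transcription, had -0.90 (SE 0.47, adjusted p 0.172), none of them called. Without the 3, Ppargc1a had -0.40 (adjusted p 0.183) under the C3-/- label and fell in WT by 1.77, and between the labels after glycerol it was higher by 1.32. In WT Ppargc1b (-1.23), Esrrb (-1.77), Esrra (-0.97), Gabpa (-0.26) and Tfam (-0.33) then fell and Nrf1 rose (0.23), all called. Of the 13 regulators listed, none fell and 1 rose under the C3-/- label and 5 fell and 1 rose in WT with all libraries, and without the 3, 1 fell and 1 rose under the C3-/- label and 9 fell and 3 rose in WT. Among all tested genes, 1.96% fell and 3.68% rose under the C3-/- label and 13.3% fell and 12.5% rose in WT. Without the 3 it was 10.8% and 12.5% under the C3-/- label and 29.4% and 26.8% in WT.

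The authors' deposited tables of their own comparisons, made on all 16 libraries, list 11 members lower and 3 higher after glycerol under the C3-/- label at their adjusted p below 0.05, where 5.46% and 10.4% of all genes with an adjusted p in that table are. For WT glycerol against PBS the authors' deposited table lists 18 lower and none higher (13.1% and 15.9% of all genes). Between the labels after glycerol it lists none lower and 6 higher (7.25% and 9.56%).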

How the data were processed

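RNA of 16 kidney libraries was measured, 4 in each group, with groups and replicate numbers taken from the sample titles. Per the submitters' processing notes, reads were handled with STAR 2.7.1, DESeq2 and R 3.6.1 on GRCm38, and the gene models are Ensembl release 96 per the file headers. The deposited signal is 1 matrix of read counts that the authors normalized with DESeq2, for 20525 genes. For 3 comparisons there is a deposited table by the authors with log2 fold changes, standard errors, p-values and adjusted p-values from DESeq2, and a test score per gene that was not used. The sources used here do not give how reads were assigned to genes, including strand and multiple matches. Of the 89 members, 25 share exons with a gene on the other strand, and Ndufb4 and Ndufb4c are near-identical copies, so their reads may be mixed.

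Whole reads could not be recovered: only 1.78% to 2.11% of the values of a library were integer multiples (tolerance 0.01) of the smallest. Depth is therefore unknown, and the spread between libraries is the measure of error. The test was that of limma 3.58.1 (R 4.3.3) on log2(normalized count + 1), a moderated two-sided test with a mean-variance trend on all 16 libraries and 1 coefficient per group, over 18035 genes with at least 10 in at least 4 libraries. Adjusted p-values are Benjamini-Hochberg over all tested genes, with calls below 0.05. Log2 ratios of 7 isoform pairs were compared in 4 comparisons (28 tests) with exact two-sided permutation over 70 splits (scipy 1.17.1), the smallest p being 0.0286. The fits were tested on simulated data.

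The members, gene lists and rules were chosen with earlier results of these data known. Named genes are, in each comparison, up to 4 called members of each complex with the smallest p, the members with the largest rise and fall, and a set list of core subunits, assembly factors, isoforms and regulators. Others are said to have been named after their values were seen. Alternatives were a pseudocount of 8, no filter on low values, libraries scaled to equal sums or equal medians, fits without the 3 repeat-numbered libraries or with terms for them and for Ddx3y, the replicate number as a block, and leaving out each library in turn. The Y-linked term in the fit without the 3 was added after seeing the data. Positions are from GENCODE M21 (GRCm38), and promoter windows were found in RefSeq for 74 of the 89 members. No amino acid sequences were used here. The values of 1 complex I member, which is kept in the counts and medians, are not reported here.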

Additional observations from a re-analysis of the deposited data

Results flagged for a closer look

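The 41 members that the naming rule allows, and the medians of complexes I to V and of the complex I assembly factors, were looked at in each group of 4 libraries for a library that stood apart. A library counted as apart where the share of its group's range taken up by its gap to the nearest other library passed Dixon's critical value for 4 samples. Of the 188 groups of values examined, 30 held such a library, and chance gives about 1 in 20. No cause was tested for any of them.

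Complexes IV and V stood apart in WT glycerol library 4, which is repeat-numbered. Its median log2 differences from the WT PBS mean were 0.3509 for complex IV, with the nearest other WT glycerol library at -0.45, and 0.5024 for complex V, with the nearest at -0.42. This library was the highest of its group for Atp5g1 (7564.9), Cox4i1 (19765.8), Cox6b2 (181.4), Cox6c (19894.7), Cox7a1 (201.5), Cox8a (9912.3), Ndufaf8 (1185.9), Ndufs5 (3160.7) and Uqcrq (10273.4), in normalized counts. It was the lowest for Cox5a (2569.0), where the nearest had 4864.

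Glycerol library 3 labelled C3-/-, also repeat-numbered, was the highest of its group in the median of the assembly factors (0.5229, nearest 0.02). It was likewise the highest in the normalized counts of Cox7a2 (7556.3), Ndufaf6 (750.7), Ndufc2 (3014.6), Ndufv1 (11130.9) and Uqcrfs1 (13805.9). Glycerol library 1 labelled C3-/- was the lowest of its group for Atp5g3 (5878.8, nearest 11041). Among PBS libraries labelled C3-/-, library 1 was the highest for Cox6c (12028.7) and library 2 for Atp5g1 (7283.8).

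WT PBS library 3 was the lowest of its group in the medians of complex I (-0.1007, nearest 0.03) and complex IV (-0.09378, nearest 0.02). It was also the lowest in the normalized counts of Atp5a1 (46015.8), Atp5b (51337.4), Cox6c (8871.7), Ndufaf7 (762.4), Ndufs5 (1967.3) and Uqcrc1 (8741.8). These gaps were small beside the glycerol differences, with Atp5b at 58231 in the nearest WT PBS library. WT PBS library 1 was the highest for Ndufaf1 (925, nearest 878).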

How the results depend on the processing

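The calls depended most on the 3 repeat-numbered libraries, and the cause was not tested. Without them the members called lower were 72 after glycerol under the C3-/- label, 81 in WT, 3 under the C3-/- label against WT after glycerol and 5 after PBS, and those called higher were 0, 1, 18 and 11, with 1 for the interaction. With terms for them and for Ddx3y on all libraries, 57 and 79 were lower after glycerol, 29 and 1 higher between the labels after glycerol and PBS and 2 for the interaction, and the PBS median was 0.19. Without them and with the Ddx3y term, chosen after seeing the data, it was 72 and 81 lower after glycerol with 1 higher in WT, 3 lower and 11 higher between the labels after glycerol, 2 lower and 1 higher after PBS, and 1 higher for the interaction.

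With libraries scaled to equal sums, 1 member was lower and 1 higher after glycerol under the C3-/- label, the PBS median was 0.17, and the interaction's median of all genes was -0.08 in place of 0.03. Equal medians, a pseudocount of 8 and no filter on low values left every count within 1.5 times. Leaving out 1 library gave 2 (without PBS library 1) to 9 (without glycerol library 3) lower and 0 to 1 higher (without glycerol library 4) after glycerol under the C3-/- label, and 12 to 22 lower in WT. Between the labels after glycerol it gave 0 (without WT library 2) to 25 higher (without WT library 4), with 1 without WT library 1 or library 3 labelled C3-/-, and 9 without library 4 labelled C3-/-.

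With the replicate number as a block (replicate block), 3 members were lower under the C3-/- label and 13 in WT after glycerol, and 2 higher between the labels after glycerol. Samples of like number correlated between -0.69 and 0.38 in their deviations, so the numbers were not taken to pair the samples. No direction reversed among called values, and the unknown depth and 4 libraries a group limit the precision.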
